A study of Mus musculus with 12 samples.

Results

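The 10 genes followed here, which textbooks place among the direct targets of p53, were taken by symbol from RNA-seq of cultured mouse CD8 T cells: Cdkn1a, Mdm2, Ccng1, Bax, Bbc3, Phlda3, Trp53inp1, Sesn1, Zmat3 and Aen. The list of symbols was drawn up with earlier results of these data known. The 10 stood among 55450 genes in the deposited tables, of which 13636 passed the filter on low counts. All 10 passed it in all comparisons. The cells were CD8 T cells of pmel-1 mice, which carry a transgenic T cell receptor for a peptide of the melanoma antigen gp100. All groups carried wild-type Ucp2 and were expanded for 4 days in 10 ng/ml IL-2. The labels name activation either by the gp100 peptide or by antibodies to CD3 and CD28, without saying which of these the libraries had. The 4 groups of 3 libraries were genipin, genipin with N-acetylcysteine (genipin+NAC), NAC alone, and vehicle, which was culture medium. Genipin is a plant compound used as an inhibitor of the mitochondrial carrier Ucp2, and NAC is a thiol antioxidant. The labels refer to doses of the compounds, but the fields used here do not give them. Whether replicates were separate animals or cultures is not stated either, so p-values here measure only the spread between libraries, which may be technical.

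The transcription factor p53 is held low in unstressed cells by the ubiquitin ligase Mdm2, which is itself a p53 target and closes a feedback loop. DNA damage, ribosomal stress and oncogene signals release p53 from Mdm2, and p53 then raises genes that stop the cell cycle, promote death, repair DNA or adjust metabolism. In activated T cells, which divide fast, this pathway is known as a brake on expansion, and Cdkn1a is its best known arrest gene. Control of p53 lies largely at the protein, which was not measured here.

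Cdkn1a was low in genipin alone and high wherever NAC was present. By counts scaled to library size (CPM), 7 of the 10 genes had their lowest group mean in genipin. The highest mean was in NAC alone for 6 of the 10. For Bbc3 and Zmat3 the NAC libraries overlapped the next group. How often all tested genes had these extremes was not counted. Genipin lowered 9 of the 10 against vehicle, where 31.0% of all tested genes were called lower. NAC raised 6 and lowered 2, where 29.6% of all tested genes were called higher and 30.0% lower. With both compounds the list split, so that Mdm2 and Sesn1 reached their highest means while Zmat3 and Aen reached their lowest. The order of the groups differed from gene to gene, and no single ranking held for the whole list.

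**Figure D1:**
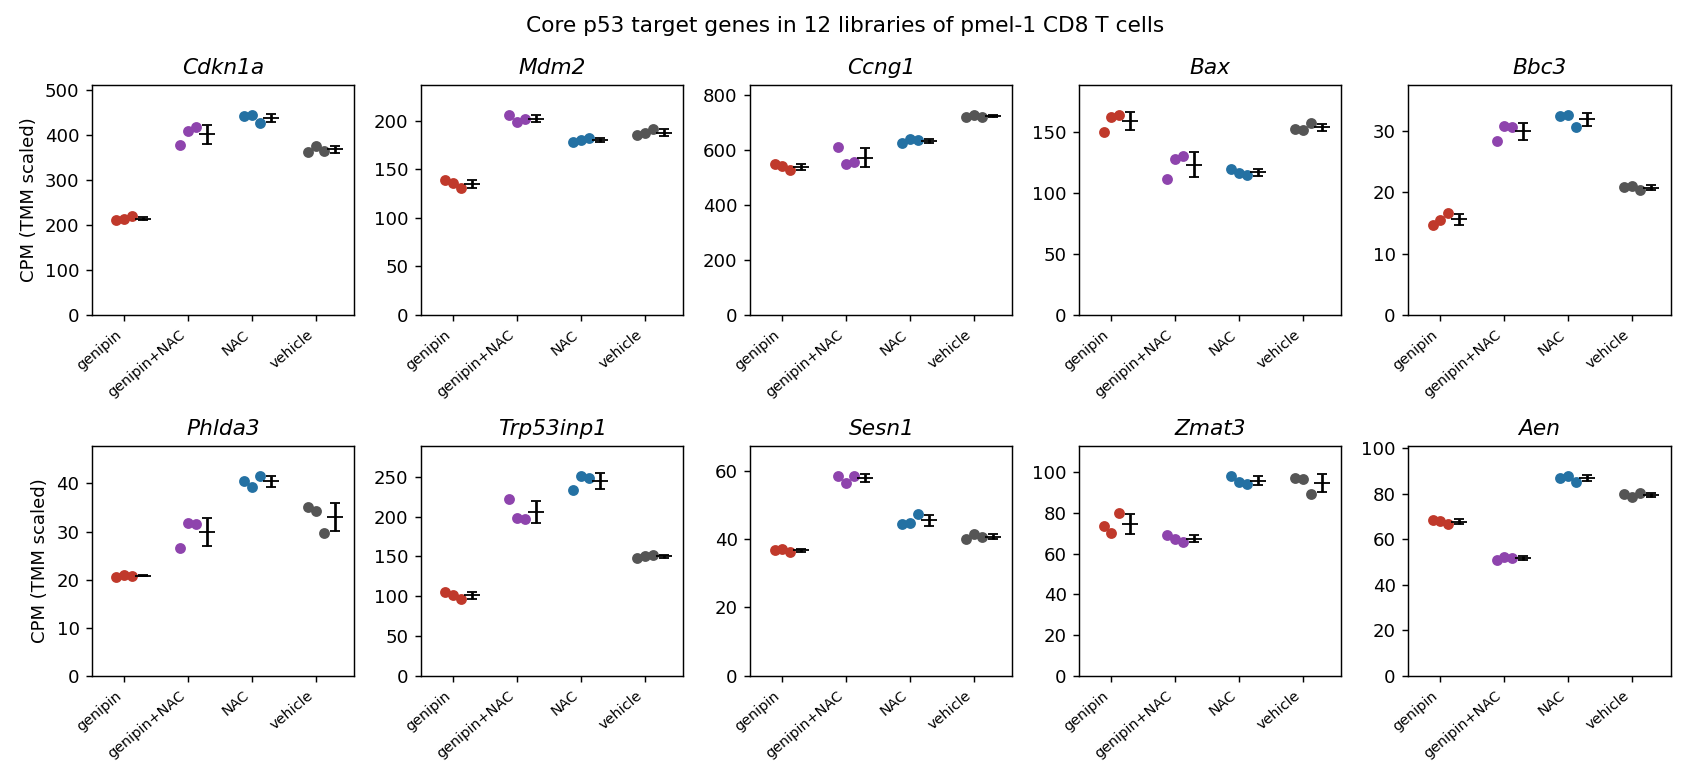
CPM (read counts scaled to library size, with TMM factors) of the 10 genes in each of the 12 libraries, 1 panel a gene, with the mean and SD of each group of 3 in black. Cdkn1a lies between 212 and 219 CPM in genipin and between 363 and 377 CPM in vehicle, while Bax in genipin overlaps vehicle.

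Library totals were 20838894 to 31098648 expected counts. The 11 CD8 T cell markers summed to 9470 to 9662 TPM (transcript levels scaled by length and library) in genipin, 10150 to 10311 in genipin+NAC, 8362 to 8403 in NAC and 7564 to 7672 in vehicle, and all 11 passed the filter. Markers of other cells were low but moved between groups. The 5 mast cell and basophil markers, 3 of them tested, summed to 49.0 to 53.6 TPM in genipin, 76.2 to 83.0 in genipin+NAC, 18.9 to 20.5 in NAC and 20.4 to 22.5 in vehicle. The 5 NK cell markers, 4 of them tested, summed to 49.6 to 50.3, 34.7 to 37.5, 19.8 to 20.8 and 25.2 to 27.5 TPM in the same order of groups. B cell, myeloid and erythroid lists stayed at or under 12.9 TPM in all libraries, the 4 CD4 T cell markers reached 43.1 TPM in NAC, and S100a8 and Hbb-bt were listed at 0 in every library. Single genes made up most of some sums. Within the NK cell sum, Eomes averaged 40.5 TPM in genipin and 22.85 TPM in vehicle. Ncr1 averaged 1.98 TPM in genipin, 0.137 in genipin+NAC, 0 in NAC and 0.0567 in vehicle. Klrb1c averaged 5.25, 3.35, 1.01 and 1.54 TPM in that order, and Klre1 2.23, 2.24, 1.61 and 2.01 TPM. Klra8 averaged at most 0.0167 TPM. Within the mast cell and basophil sum, Kit averaged 61.5 TPM in genipin+NAC and 9.37 TPM in genipin. Mcpt8 averaged 29.5 TPM in genipin, 2.41 in genipin+NAC, 0.757 in NAC and 11.5 in vehicle. Cpa3 averaged 13.1, 14.8, 4.09 and 6.57 TPM in the same order. Fcer1a averaged at most 0.0233 TPM and Ms4a2 at most 0.00667 TPM. Zbtb7b averaged 37.1 TPM in NAC within the CD4 T cell sum. Whether such cells were present was not tested. The part of these markers in the results below was not tested. In bulk RNA, fewer cells of a type and less RNA per cell cannot be told apart. Replicate 1 of genipin+NAC stood apart from its group. Squared differences of its counts from those of the other replicates were 6.77 and 7.75 times the counting variance (chi-square per degree of freedom). Between those other replicates the value was 2.08. Where replicate 1 of genipin+NAC decides the call of a member, the value without it is given. Counts of some further gene lists are also given without it.

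The levels of the 10 genes could be compared per length by TPM. In vehicle, Cdkn1a averaged 249.7 TPM, Bax 244 TPM and Ccng1 236 TPM, the most abundant of the list. Mdm2 followed with 87.2 TPM and Aen with 41.7 TPM. The low end held Trp53inp1 at 31.5 TPM, Phlda3 at 29.4 TPM, Bbc3 at 19.3 TPM, Sesn1 at 17.9 TPM and Zmat3 at 14.4 TPM. All other per-library values of the members below are CPM, which compare 1 gene across libraries and not genes with each other.

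The DNA before the starts of Cdkn1a and Ccng1 was searched for letters like the consensus element of p53. Cdkn1a lies at chr17:29090976-29100727 on the plus strand and Ccng1 at chr11:40748552-40755311 on the minus strand of mm10. The 250 bases before a RefSeq start of each (build GRCm38.p6) are printed from 5′ to 3′ along the gene's strand, at chr17:29090729-29090978 and chr11:40755287-40755536, because both held a close match to the p53 consensus element. Capitals mark the 20 bases of that match.
Cdkn1a: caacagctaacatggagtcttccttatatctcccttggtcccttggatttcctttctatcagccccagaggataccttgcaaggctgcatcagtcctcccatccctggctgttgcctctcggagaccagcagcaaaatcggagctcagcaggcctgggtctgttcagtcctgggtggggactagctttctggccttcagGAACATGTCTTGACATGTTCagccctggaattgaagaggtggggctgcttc
Ccng1: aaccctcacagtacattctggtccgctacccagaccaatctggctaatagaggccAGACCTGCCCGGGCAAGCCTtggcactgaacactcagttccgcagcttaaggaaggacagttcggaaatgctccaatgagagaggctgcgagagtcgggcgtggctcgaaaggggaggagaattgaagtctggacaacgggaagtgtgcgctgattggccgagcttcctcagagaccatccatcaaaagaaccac
The p53 consensus element is a pair of adjoining half-sites, searched on both strands in windows from 250 bases before to 50 after each RefSeq start, with all 4 core letters required (the C and G of each half-site). Both matches had 1 mismatch in 20 bases. They began 51 and 195 bases before the start, and both lay upstream of the annotated gene. At this limit 22 of 27025 genes with a window held a match, or 0.0814%. Of the 8 members with a window, Cdkn1a and Ccng1 held one.

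At a limit of 3 mismatches, chosen after looser and stricter limits had been seen, 441 of 27025 genes (1.63%) and 5 of the 8 members had a match. The other three lie within their genes and are shown with the core bases of each half-site in capitals.
Bbc3: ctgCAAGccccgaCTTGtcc
Sesn1: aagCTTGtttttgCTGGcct
Aen: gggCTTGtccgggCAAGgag
The Bbc3 match at chr7:16309486-16309505 and the Sesn1 match at chr10:41887266-41887285 lie in introns, 97 and 173 bases before an internal start. The Aen match at chr7:78895937-78895956 lies in a UTR exon, 11 bases after one start and 121 before another. Mdm2, Bax and Phlda3 had windows without a match, and Trp53inp1 and Zmat3 had no window. A match is a string of letters and not a site shown to bind. Genes become known as p53 targets partly through such elements, so the share among members is not independent of the list.

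Genipin against vehicle lowered most of the list. Of the 10 genes, 9 fell and none rose at an adjusted p under 0.05, against 31.0% of all tested genes lower, 29.9% higher and 61.0% called in either direction. The median log2 fold change of the 10 was -0.42, against -0.01 over all tested genes. The 3 libraries of one group lay wholly below those of the other for the 9 genes, and such a separation in either direction was found for 66.7% of all tested genes. The exception was Bax.

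Other scales bear on small changes: library totals without normalization factors, and limma on log2(TPM + 1), called the TPM scale here. The TPM scale moved the median log2 fold change of all genes to 0.09 for genipin and 0.15 for NAC against vehicle, and to -0.19 for the interaction. Without normalization factors these were 0.06, 0.11 and -0.11. The calls over all genes were 4080 higher and 4232 lower for genipin against vehicle, and 4941 and 2465 on the TPM scale. For NAC against vehicle they were 4041 higher and 4093 lower, 5615 and 2700 without factors, and 5820 and 1669 on the TPM scale. Of the members, 7 were lower and 1 higher with genipin on the TPM scale.

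Cdkn1a encodes p21, the inhibitor of cyclin-dependent kinases that carries out arrest after p53 activation. It had 212, 213 and 219 CPM in genipin and 378, 410.2 and 418 CPM in genipin+NAC. In NAC it had 441, 445 and 427 CPM, and in vehicle 363, 377 and 365 CPM. The genipin libraries lay far below all others, and the other groups followed closely on each other, with the lowest genipin+NAC library just above the highest vehicle library. The log2 fold change was -0.78 ± 0.03 (SE, adjusted p = 4.45e-14) for genipin against vehicle, the largest fall of the 10.

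Mdm2 encodes the ubiquitin ligase that marks p53 for degradation. Its values were 139, 136 and 131 CPM in genipin and 206, 199 and 202 CPM in genipin+NAC, against 178, 179.9 and 182 CPM in NAC and 185, 187 and 191 CPM in vehicle. Genipin was lowest and genipin+NAC highest, without overlap between any of the groups. Genipin lowered it by a log2 fold change of -0.48 ± 0.03 against vehicle (adjusted p = 2.10e-11). Ccng1 encodes cyclin G1, which recruits a phosphatase to Mdm2. It had 548, 541 and 527 CPM in genipin and 613, 550.2 and 556 CPM in genipin+NAC, against 626, 639 and 637 CPM in NAC and 720.0, 728 and 722 CPM in vehicle. It was the only member with its highest CPM mean in vehicle, while its TPM means were 237.7 in NAC and 236.35 in vehicle. The change of Ccng1 with genipin was -0.43 ± 0.03 (adjusted p = 5.02e-10).

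The death genes did not move as one group. Bax encodes the protein that opens the outer mitochondrial membrane. Its values were 150.5, 163 and 164 CPM in genipin and 112, 128 and 130.5 CPM in genipin+NAC, against 119.8, 116 and 115 CPM in NAC and 153, 152 and 157 CPM in vehicle. Bax was thus high without NAC and low with it, and genipin overlapped vehicle. The change with genipin was 0.05 ± 0.05 with a 95% interval of -0.05 to 0.14 and did not pass the test (adjusted p = 0.389). It passed as a rise without normalization factors (0.11, adjusted p = 0.0316) and on the TPM scale (0.19, adjusted p = 0.00305).

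Bbc3 encodes Puma, a BH3-only protein that frees Bax and Bak from their inhibitors. It had 14.8, 15.4 and 16.6 CPM in genipin and 28.4, 30.8 and 30.7 CPM in genipin+NAC, against 32.4, 32.6 and 30.7 CPM in NAC and 20.95, 21.03 and 20.3 CPM in vehicle. Both NAC groups overlapped each other and lay above the rest, the reverse of the pattern of Bax. Genipin changed Bbc3 by -0.41 ± 0.06 against vehicle (adjusted p = 1.20e-05), and on the TPM scale by -0.16 (adjusted p = 0.0563), which did not pass. Trp53inp1 encodes a nuclear protein that promotes p53 phosphorylation and death, and it ranked the groups in the same order as Bbc3. It had 105, 101 and 97.1 CPM in genipin and 222, 198 and 198 CPM in genipin+NAC, against 234, 251 and 249.01 CPM in NAC and 148, 150.2 and 152 CPM in vehicle. The change with genipin was -0.57 ± 0.04 (adjusted p = 3.38e-10).

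Phlda3 encodes a protein with a pleckstrin homology domain that opposes the kinase Akt. It had 20.6, 20.9 and 20.8 CPM in genipin and 26.7, 31.7 and 31.5 CPM in genipin+NAC, against 40.6, 39.3 and 41.6 CPM in NAC and 35.2, 34.3 and 29.6 CPM in vehicle. Genipin+NAC overlapped vehicle and the other groups stood apart. The change with genipin was -0.67 ± 0.07 (adjusted p = 7.43e-08). Aen encodes a nuclease that adds to DNA breakdown in dying cells. It had 68.5, 68.1 and 66.7 CPM in genipin and 50.7, 52.3 and 51.8 CPM in genipin+NAC, against 87.1, 87.9 and 85.3 CPM in NAC and 79.8, 78.5 and 80.2 CPM in vehicle. Both genipin groups were below both groups without genipin. The change with genipin alone was -0.23 ± 0.03 (adjusted p = 5.91e-06).

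The remaining members were Sesn1 and Zmat3. Sesn1 encodes a sestrin, a stress protein that restrains mTORC1 signalling. It had 36.7, 37.1 and 36.2 CPM in genipin and 58.5, 56.5 and 58.5 CPM in genipin+NAC, against 44.4, 44.7 and 47.4 CPM in NAC and 40.05, 41.4 and 40.7 CPM in vehicle. Sesn1 showed the smallest of the 9 falls with genipin, -0.15 ± 0.05 (adjusted p = 0.00611), and it did not pass without normalization factors (-0.09, adjusted p = 0.104) or on the TPM scale (-0.02, adjusted p = 0.654). Zmat3 encodes an RNA-binding zinc finger protein that acts in splicing. It had 73.4, 70.1 and 80.2 CPM in genipin and 69.2, 67.2 and 65.7 CPM in genipin+NAC, against 98.3, 94.97 and 94.0 CPM in NAC and 97.2, 96.9 and 89.5 CPM in vehicle. NAC and vehicle overlapped, and both genipin groups lay below them. The change with genipin was -0.34 ± 0.05 (adjusted p = 1.41e-06).

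**Figure D2:**
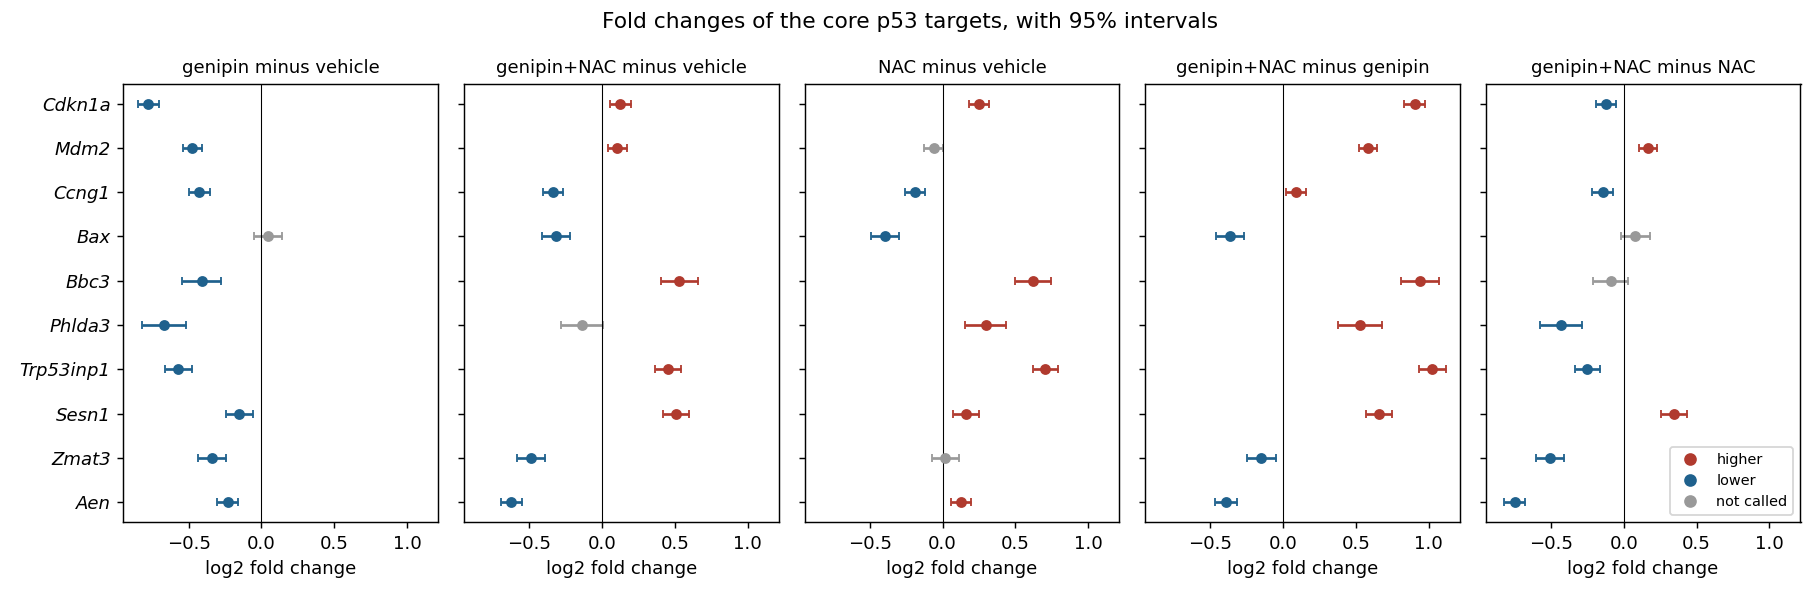
Log2 fold changes of the 10 genes in the 5 comparisons of pairs of groups, with 95% intervals, and with calls at adjusted p under 0.05 set apart from the rest. The 9 genes called lower lie below 0 for genipin against vehicle, and 7 lie above 0 for genipin+NAC against genipin.

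NAC against vehicle gave another split. It raised Cdkn1a, Bbc3, Phlda3, Trp53inp1, Sesn1 and Aen and lowered Ccng1 and Bax. That is 6 higher and 2 lower of 10, where 59.7% of all tested genes were called (29.6% higher and 30.0% lower). The libraries of NAC and vehicle did not overlap for 9 of the 10, and for 65.9% of all tested genes. The median log2 fold change of the 10 was 0.14 and that of all tested genes -0.01. Trp53inp1 changed most, by 0.71 ± 0.04 (adjusted p = 5.80e-12), and Bbc3 changed by 0.62 ± 0.06 (adjusted p = 1.39e-08). Both genes act on the death side of the pathway, as does Bax, which fell by 0.40 on the log2 scale (SE 0.05, adjusted p = 2.04e-07). Cdkn1a rose by 0.25 ± 0.03 (adjusted p = 1.91e-06) and Phlda3 by 0.30 ± 0.07 (adjusted p = 0.000826). Smaller rises were 0.16 ± 0.04 for Sesn1 and 0.13 ± 0.03 for Aen.

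The fall of Ccng1 with NAC depended on the scale. It was -0.19 ± 0.03 (adjusted p = 4.86e-05), -0.07 without normalization factors (adjusted p = 0.0865) and 0.01 on the TPM scale (adjusted p = 0.884). Mdm2 and Zmat3 did not pass, with -0.06 ± 0.03 (adjusted p = 0.0862) and 0.02 ± 0.04 (adjusted p = 0.740). Zmat3 passed as a rise without normalization factors (0.14, adjusted p = 0.0113). Mdm2 was at 0.13 on the TPM scale (adjusted p = 0.00933), in the other direction, and at -0.06 without genipin+NAC replicate 1 (adjusted p = 0.0478).

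Genipin+NAC against vehicle put the genes on both sides. Cdkn1a, Mdm2, Bbc3, Trp53inp1 and Sesn1 were higher and Ccng1, Bax, Zmat3 and Aen lower, so that 5 rose and 4 fell, with 57.4% of all tested genes called, 28.5% higher and 28.9% lower. Libraries did not overlap for 9 of the 10 and for 60.7% of all genes. The medians were -0.01 for the list and 0.00484 for all genes. Bbc3 rose by 0.53 ± 0.06 (adjusted p = 1.58e-07), Sesn1 by 0.51 ± 0.04 (adjusted p = 2.15e-09) and Trp53inp1 by 0.46 ± 0.04 (adjusted p = 7.56e-09). The rises of Cdkn1a and Mdm2 were small, 0.13 ± 0.03 and 0.11 ± 0.03. Aen changed by -0.62 ± 0.04 (adjusted p = 2.72e-12) and Zmat3 by -0.49 ± 0.05 (adjusted p = 9.35e-09). The changes were -0.34 ± 0.03 for Ccng1 and -0.32 ± 0.05 for Bax. Phlda3 did not pass at -0.14 ± 0.07 (adjusted p = 0.102) and did pass without vehicle replicate 3 (-0.21, adjusted p = 0.0167).

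Adding NAC to genipin moved all 10 genes past the threshold. Cdkn1a, Mdm2, Ccng1, Bbc3, Phlda3, Trp53inp1 and Sesn1 were higher and Bax, Zmat3 and Aen lower in genipin+NAC than in genipin. These 7 rises and 3 falls stood against 69.3% of all tested genes called, 35.0% higher and 34.3% lower. All 10 had no overlap between the groups, as had 70.3% of all genes, and the median of the 10 was 0.56 against 0.01 for all. Trp53inp1 rose by 1.03 ± 0.04 (adjusted p = 8.17e-15), Bbc3 by 0.94 ± 0.06 (adjusted p = 1.60e-11) and Cdkn1a by 0.90 ± 0.03 (adjusted p = 1.68e-15). These were the 3 largest rises of the list. The death genes were thus split, with Bbc3 and Trp53inp1 higher and Bax and Aen lower. Sesn1 rose by 0.66 ± 0.04, Mdm2 by 0.58 ± 0.03 and Phlda3 by 0.53 ± 0.07. Aen changed by -0.39 ± 0.04 and Bax by -0.36 ± 0.05, with adjusted p of 2.83e-09 and 4.09e-07.

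The other calls of that comparison were small. Ccng1 changed by 0.09 ± 0.03 (adjusted p = 0.0227), and the call was lost without genipin+NAC replicate 1 (0.04, adjusted p = 0.151), without genipin replicate 2 or 3 (0.09 and 0.07, adjusted p of 0.0528 and 0.107) and on the TPM scale (0.02, adjusted p = 0.744). Zmat3 changed by -0.15 ± 0.05 (adjusted p = 0.00747), with the call lost without genipin replicate 3 (-0.09, adjusted p = 0.0819).

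Genipin+NAC against NAC shows genipin on an NAC background. Mdm2 and Sesn1 rose, and Cdkn1a, Ccng1, Phlda3, Trp53inp1, Zmat3 and Aen fell. These were 2 rises and 6 falls of 10, with 53.1% of all tested genes called, 26.6% higher and 26.5% lower. Libraries did not overlap for 8 of the 10 and for 56.7% of all genes. The medians were -0.13 for the list and 0.01 for all genes. Aen changed by -0.75 ± 0.04 (adjusted p = 1.31e-13), Zmat3 by -0.51 ± 0.05 (adjusted p = 6.05e-09) and Phlda3 by -0.43 ± 0.07 (adjusted p = 1.81e-05). Smaller falls were -0.25 ± 0.04 for Trp53inp1, -0.15 ± 0.03 for Ccng1 and -0.12 ± 0.03 for Cdkn1a. Sesn1 rose by 0.35 ± 0.04 (adjusted p = 6.53e-07) and Mdm2 by 0.17 ± 0.03 (adjusted p = 7.78e-05), the Mdm2 call being lost on the TPM scale (0.06, adjusted p = 0.182). Bax at 0.08 ± 0.05 (adjusted p = 0.156) and Bbc3 at -0.09 ± 0.06 (adjusted p = 0.208) did not pass. Bax passed at 0.15 without genipin+NAC replicate 1 (adjusted p = 0.00114), and Bbc3 at -0.17 without normalization factors (adjusted p = 0.0169).

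Whether NAC altered the effect of genipin was tested as an interaction, the log2 change of genipin+NAC against NAC less that of genipin against vehicle. It was positive in 6 genes and negative in 2, with 51.4% of all tested genes called, 27.4% positive and 24.0% negative. Cdkn1a had an interaction of 0.65 ± 0.05 (adjusted p = 2.56e-10): genipin changed it by -0.12 with NAC and by -0.78 without. Mdm2 had 0.64 ± 0.04 (adjusted p = 5.02e-11). Genipin changed it by 0.17 with NAC and by -0.48 without. Sesn1 likewise was at 0.35 with NAC and -0.15 without. Its interaction was 0.50 ± 0.06 (adjusted p = 7.58e-07). Aen had the opposite sign, -0.52 ± 0.05 (adjusted p = 1.26e-08), with -0.75 with NAC and -0.23 without.

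The other interactions were smaller and less stable. Bbc3 had 0.32 ± 0.09 (adjusted p = 0.00377), Trp53inp1 0.32 ± 0.06 (adjusted p = 0.000132) and Ccng1 0.28 ± 0.05 (adjusted p = 4.06e-05). None of these passed on the TPM scale, where the values were 0.11, 0.02 and 0.01 (adjusted p of 0.346, 0.854 and 0.917). Zmat3 had -0.17 ± 0.06 (adjusted p = 0.0343) and lost the call when any of 6 single libraries was left out. Phlda3 did not pass at 0.23 ± 0.10 (adjusted p = 0.0562) but did without genipin+NAC replicate 1 (0.31, adjusted p = 0.00515). Bax was at 0.03 ± 0.06 (adjusted p = 0.691), and at -0.26 on the TPM scale (adjusted p = 0.00491).

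**Figure D3:**
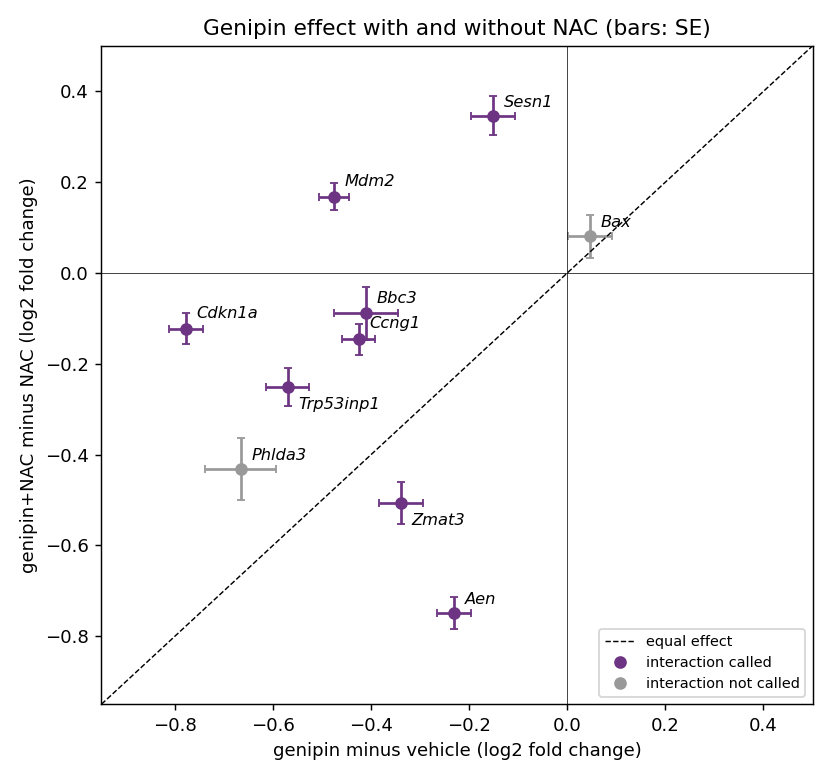
Log2 fold change of genipin with NAC (genipin+NAC against NAC, vertical axis) and without NAC (genipin against vehicle, horizontal axis) for the 10 genes, with standard errors and the line of equal effects. Mdm2 and Sesn1 lie above 0 with NAC and below 0 without it, and Aen and Zmat3 lie below the line of equal effects.

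Trp53, the gene of p53 itself, did not follow the members. It had 137, 141 and 145 CPM in genipin and 73.1, 90.0 and 80.4 CPM in genipin+NAC, against 102, 102 and 97.4 CPM in NAC and 111, 115 and 112 CPM in vehicle. Genipin libraries were the highest and genipin+NAC libraries the lowest, with no overlap. Trp53 changed by 0.33 ± 0.05 with genipin, by -0.16 ± 0.05 with NAC and by -0.47 ± 0.05 with both, each against vehicle. Adding NAC to genipin changed it by -0.79 ± 0.05. On the TPM scale the change with NAC was 0.04.

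Mdm4, the partner of Mdm2 that blocks p53's activation domain, ranked the groups as Cdkn1a did. It had 190.1, 186 and 183 CPM in genipin and 288, 265 and 255 CPM in genipin+NAC, against 303, 309 and 303 CPM in NAC and 250.3, 239.8 and 249.7 CPM in vehicle. Its changes against vehicle were -0.40 ± 0.04 with genipin, 0.31 ± 0.04 with NAC and 0.13 ± 0.04 with both. Cdkn2a gives rise to p16 and to p19Arf, the latter an inhibitor of Mdm2. It averaged 55.8 ± 3.97 CPM in genipin, 10.98 ± 0.505 CPM in genipin+NAC, 7.41 ± 0.920 CPM in NAC and 79.0 ± 2.84 CPM in vehicle (SD, n = 3 each). Its changes against vehicle were -3.42 ± 0.07 with NAC and -2.84 ± 0.07 with both compounds. Counts per gene do not separate the p16 and p19Arf transcripts.

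Of 20 regulators of p53, all tested, 8 rose and 8 fell with genipin, 9 rose and 7 fell with NAC, and 11 rose and 5 fell with both, each against vehicle. Over all tested genes 61.0%, 59.7% and 57.4% were called in those comparisons. The NAC split was 13 higher and 4 lower without normalization factors, and 11 higher and 1 lower on the TPM scale. Over all 13636 tested genes NAC gave 5615 higher and 2700 lower without factors, and 5820 and 1669 on the TPM scale. Without genipin+NAC replicate 1 the NAC split of the regulators was 11 higher and 7 lower. The medians of the regulators were 0.06, 0.10 and 0.16. Rpl5 and Rpl11, ribosomal proteins that bind and inhibit Mdm2, changed by -0.53 ± 0.03 and -0.34 ± 0.03 with genipin. Crebbp, which acetylates p53, rose by 0.48 ± 0.05 with genipin. Usp28, a deubiquitinase of the p53 pathway, rose by 0.65 ± 0.07 with NAC and by 0.67 ± 0.07 with both. Atr, a kinase of the DNA damage response, rose by 0.55 ± 0.04 with both against vehicle. The list had members on both sides in every comparison.

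**Figure D4:**
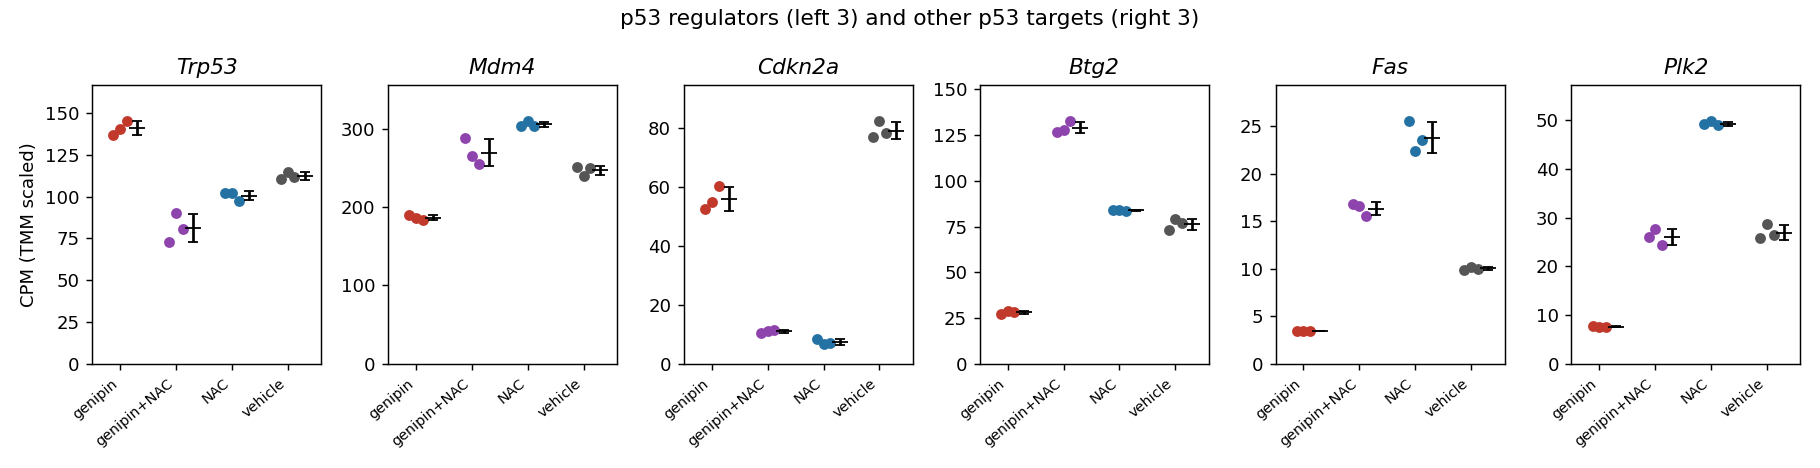
CPM (TMM scaled) per library of Trp53, Mdm4 and Cdkn2a, which act on or upstream of p53, and of the further p53 targets Btg2, Fas and Plk2, with the mean and SD of each group of 3. Trp53 is highest in genipin, where Mdm4, Btg2, Fas and Plk2 are lowest.

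A further 30 known p53 targets outside the 10, all tested, were counted in the same way. With genipin 18 fell and 5 rose, against 31.0% of all tested genes lower and 29.9% higher, at a median of -0.29. NAC raised 15 and lowered 4, against 29.6% higher and 30.0% lower, at a median of 0.17. With both compounds 9 rose and 11 fell against vehicle, against 28.5% higher and 28.9% lower, at a median of -0.04. Without genipin+NAC replicate 1 these counts were 9 and 9. Adding NAC to genipin raised 15 and lowered 9, with 35.0% and 34.3% over all genes. In genipin+NAC against NAC, 2 rose and 17 fell, with 26.6% and 26.5% over all genes. On the TPM scale the genipin split was 13 lower and 8 higher, at a median of -0.08, against 2465 lower and 4941 higher over all tested genes.

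Btg2, an antiproliferative gene, averaged 28.2 ± 0.744 CPM in genipin, 129 ± 3.01 CPM in genipin+NAC, 84.0 ± 0.277 CPM in NAC and 76.3 ± 2.99 CPM in vehicle (SD, n = 3 each). It changed by -1.44 ± 0.04 with genipin and by 2.19 ± 0.04 when NAC was added to genipin. Fas, the death receptor, averaged 3.46 ± 0.0352 CPM in genipin, 16.3 ± 0.696 CPM in genipin+NAC, 23.8 ± 1.59 CPM in NAC and 10.0 ± 0.150 CPM in vehicle. Its changes were -1.53 ± 0.09 with genipin and 1.24 ± 0.07 with NAC. Plk2, a kinase of the stress response, changed by -1.81 ± 0.07 with genipin and by 0.87 ± 0.06 with NAC. Tnfrsf10b, a receptor of the death ligand TRAIL, fell by 0.78 on the log2 scale with genipin. These 4 genes do not stand for the whole list, of which 18 fell and 5 rose with genipin. E2f7 went the other way, with 16.2 ± 0.046 CPM in genipin and 7.99 ± 0.322 CPM in vehicle. The interaction of E2f7 was -1.31 ± 0.14, opposite in sign to those of Btg2, Fas and Plk2. Btg2, Fas and Plk2 all changed by more with genipin than any of the 10 core genes.

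The p21 protein leads to repression of cell cycle genes through the DREAM complex, and 16 such genes were followed. All 16 rose with genipin, against 29.9% of all tested genes higher, at a median of 0.66. With NAC 15 rose and Lmnb1 fell, against 29.6% of all tested genes higher, at a median of 0.59. On the TPM scale all 16 rose with NAC, and without normalization factors 15 rose and none fell. Over all 13636 tested genes NAC gave 5820 higher and 1669 lower on the TPM scale, and 5615 and 2700 without factors. With both compounds against vehicle none rose and 10 fell, against 28.9% of all tested genes lower, at a median of -0.15. All 16 fell in genipin+NAC against genipin and against NAC, where 34.3% and 26.5% of all tested genes were lower, with medians of -0.81 and -0.74. The interaction was negative in all 16, against 24.0% of all tested genes, at a median of -1.37. Cdkn1a itself was lower with genipin and higher with NAC, each against vehicle. Plk1, a mitotic kinase, rose by 1.00 ± 0.04 with genipin and by 0.81 ± 0.05 with NAC. Ccna2, the cyclin of S and G2 phase, rose by 0.83 ± 0.04 and 0.73 ± 0.04 in those comparisons. Ccnb1, the mitotic cyclin, rose by 0.62 ± 0.03 with genipin and fell by 0.37 on the log2 scale with both compounds. Lmnb1, a lamin, fell by 0.69 on the log2 scale with both. The count of 10 lower with both compounds was 8 lower and 1 higher without normalization factors, and 4 lower and 1 higher on the TPM scale. Over all tested genes 3456 were lower and 4400 higher without factors, and 2605 and 3777 on the TPM scale. Without genipin+NAC replicate 1 the count was 12 lower and 0 higher.

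**Figure D5:**
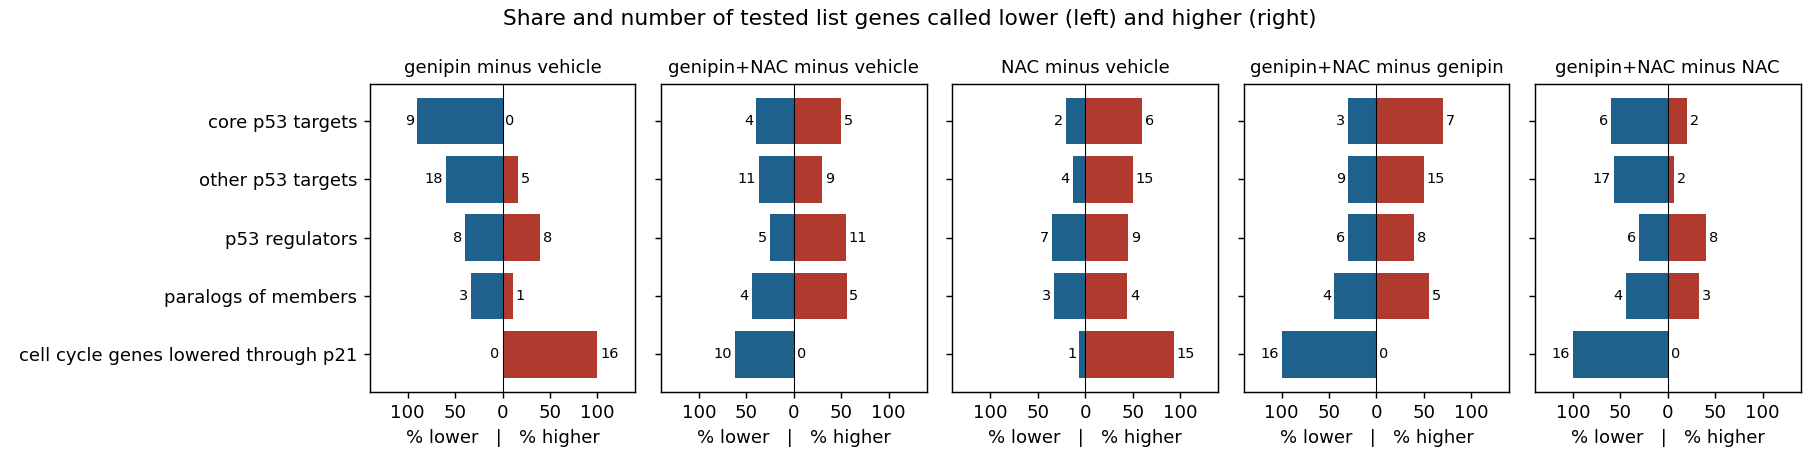
Percent of tested members of each list that were higher (right) or lower (left) at adjusted p under 0.05, 1 panel a comparison, with the numbers of genes beside the bars. The core targets and other targets lean to the left for genipin against vehicle, where all 16 cell cycle genes lie to the right.

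The genes most like Cdkn1a over the 12 libraries were sought among 9423 genes outside the list with a mean of at least 5 CPM. Predicted genes, genes named only by a clone or accession, and pseudogenes had been left out of these. Pearson's r of log2 CPM was 0.999 for Eif4ebp1, 0.997 for H2-M3, 0.997 for Unc93b1, 0.996 for Mrm1 and 0.994 for Gnb5. For Mdm2 it was 0.991 for Nsa2 and 0.989 each for Sdf4, Acss2, Fam162a and Dusp5. The 12 points are 4 groups of 3 and share their group means, library and depth, so r describes the likeness of 4 group levels. These genes were picked as the extreme of a long list.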

How the data were processed

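RNA of 12 libraries was sequenced after removal of ribosomal RNA with a stranded kit, per the labels' protocols. Per the submitters' processing notes, the tools were STAR 2.7.0f, RSEM 1.3.1, cutadapt 1.18 and bcl2fastq and the build was mm10, with no roles stated. Per the file headers, each library's table from the authors holds expected counts, TPM, FPKM and effective lengths. The deposited expected counts were rounded to whole numbers before testing. The deposited TPM compared levels between genes and, as log2(TPM + 1) in limma 3.58.1, gave an alternative. FPKM were not used.

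The members and gene lists were chosen with earlier results of these data known, so no list is independent support. Groups came from the labels. The filterByExpr function of edgeR 4.0.16 (R 4.3.3) kept 13636 genes, TMM factors ran from 0.961 to 1.05, and 1 quasi-likelihood model of 4 group means covered all 12 libraries. SE is the absolute log2 fold change over the square root of F. Calls had a Benjamini-Hochberg adjusted p under 0.05 over all tested genes in each of 6 comparisons. Between replicates, the common biological coefficient of variation came to 0.0393.

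The text names all 10 members, Trp53 and Mdm4, from each other list members among the 4 with the smallest p per comparison, and for likeness the 5 closest genes each to Cdkn1a and Mdm2. Where values of such a gene in further comparisons are given, they complete its account. Group markers and non-members outside that rule appear as sums or counts, apart from the single markers named beside those sums. Alternatives were RLE factors, no factors, other filters, DESeq2 1.42.0, limma-voom, a threshold of 0.01, only the groups compared, effective length offsets, the replicate number as a block and each library left out. The TPM alternative was chosen after seeing the data. Coordinates are GENCODE mouse M21 on mm10, and promoter letters RefSeq GRCm38.p6. Annotated genes overlapping Cdkn1a, Bax and Sesn1 on either strand had few expected counts themselves (at most 16.1 per library). Reads shared with the members were not counted. Figures used matplotlib 3.10.9.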

Additional observations from a re-analysis of the deposited data

Results flagged for a closer look

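For 8 of the 10 genes the genipin effect differed between cells with NAC and cells without NAC, as tested by the interaction in edgeR, where 51.4% of all tested genes were called. On the log2 scale the effect under NAC less the effect in its absence was 0.65 for Cdkn1a and 0.64 for Mdm2, whose effects were -0.12 and 0.17 with NAC and -0.78 and -0.48 without. It was 0.50 for Sesn1, which rose with genipin in NAC and fell without NAC. It was 0.32 for Bbc3, 0.32 for Trp53inp1 and 0.28 for Ccng1, all with a smaller fall under NAC. On the TPM scale these were 0.11, 0.02 and 0.01 and none passed. There the calls among the 10 were 3 positive and 3 negative, against 1542 positive and 5344 negative over the 13636 tested genes. The difference was negative for Aen at -0.52 and for Zmat3 at -0.17, whose falls were larger with NAC. The call of Zmat3 was lost when any of 6 single libraries was left out.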

How the results depend on the processing

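The number of members called stayed within 1.5 times its reported value under every setting run: 8 to 9 for genipin against vehicle, 8 to 9 for NAC, 9 to 10 for both compounds, 8 to 10 for genipin+NAC against genipin, 7 to 9 against NAC and 6 to 9 for the interaction. With single libraries left out these were 9 to 9, 8 to 9, 9 to 10, 8 to 10, 8 to 9 and 7 to 9. Of the members' log2 fold changes over all settings, 1318 kept direction and call, 28 lost the call, 12 gained it and 12 changed sign.

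The 12 sign changes were as follows. Without normalization factors, Mdm2 with NAC was 0.058 and the Bax interaction -0.11. With effective length offsets, Zmat3 with NAC was -0.024 and Bbc3 in genipin+NAC against NAC 0.081. On the TPM scale, Mdm2 with NAC was 0.13, Ccng1 with NAC 0.0083, Bax in genipin+NAC against NAC -0.064, and the interactions were -0.26 for Bax and -0.048 for Phlda3. With single libraries left out, Zmat3 with NAC ranged from -0.018 (without vehicle replicate 3) to 0.040. The Bax interaction ranged from -0.0085 (without genipin+NAC replicate 3) to 0.098, and was -0.0077 without genipin replicate 1. The cause was not tested.

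Splits over all genes also moved. For genipin+NAC against NAC they were 3632 higher and 3607 lower, 2650 and 4733 without factors, and 1660 and 4687 on the TPM scale. For the interaction they were 3733 and 3275, 2618 and 4806, and 1542 and 5344. For genipin+NAC against vehicle they were 3891 and 3935, and 3777 and 2605 on the TPM scale.

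With the replicate number as a block, 9, 8, 9, 10, 8 and 8 members were called in the 6 comparisons, as without it, and 8246 genes for genipin against vehicle. Once group means were removed, the 18 same-numbered pairs correlated between -0.0751 and 0.0437, and the closest match of a library bore its own number in 4 of 12 cases, so the number was not taken as a pairing. The interaction could not be fitted on only the groups compared. How depth or more libraries would change the calls was not tested.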

Other observations

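Of 12 paralogs of the members, 9 passed the filter. With genipin 1 rose and 3 fell, with NAC 4 rose and 3 fell, and with both 5 rose and 4 fell, each against vehicle, where 61.0%, 59.7% and 57.4% of all tested genes were called. On the TPM scale the splits were 3 higher and 2 lower, 5 and 1, and 5 and 3. Over all 13636 tested genes they were 4941 higher and 2465 lower, 5820 and 1669, and 3777 and 2605 on that scale. Cdkn1b encodes p27, a sister inhibitor to p21. It averaged 38.9 ± 1.54 CPM in genipin, 92.5 ± 3.37 CPM in genipin+NAC, 86.3 ± 5.24 CPM in NAC and 40.6 ± 2.38 CPM in vehicle (SD, n = 3 each). It rose by 1.09 ± 0.05 on the log2 scale with NAC and by 1.19 ± 0.05 with both compounds, while Cdkn1a rose by 0.25 and 0.13. With genipin Cdkn1b was at -0.06 and was not called.

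Ccng2, the cyclin most like Ccng1, rose by 0.58 ± 0.05 with NAC and by 1.13 ± 0.05 with both, where Ccng1 was lower by -0.19 and -0.34. Phlda1, related to Phlda3, averaged 15.4 ± 0.537 CPM in genipin, 51.7 ± 3.26 CPM in genipin+NAC, 21.2 ± 0.857 CPM in NAC and 22.9 ± 2.01 CPM in vehicle. It rose by 1.75 ± 0.07 when NAC was added to genipin, where Phlda3 rose by 0.53. Isg20, a nuclease related to Aen, fell by 1.22 on the log2 scale with NAC, where Aen rose by 0.13.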
